A study of Homo sapiens with 12 samples.

Results

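Gene expression was compared between NCI-H1975 cells kept in quinacrine alone and in erlotinib alone. The comparison rests on 6 of the 12 arrays of the series: cells in 3 µM quinacrine and cells in 1 µM erlotinib, each sampled after 6, 12 and 24 h, and each quinacrine array was set against the erlotinib array of its own time. NCI-H1975 is an established human lung adenocarcinoma line, and all groups, the untreated one included, carry mutant EGFR with the L858R and T790M changes per the labels. The series also holds 1 untreated array with no stated time, 3 arrays of both compounds at the same doses and times, and a 48 h array each of erlotinib and of both compounds, which had no quinacrine partner and stayed outside the comparison. Each condition and time had 1 array, so n counts time points (n = 3 per compound) and no condition had a replicate. Whether the arrays came from separate cultures is not given in the sources used here, and p-values therefore measure only the spread between these arrays.

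Erlotinib blocks the ATP site of the EGFR kinase. The L858R change switches that kinase on, whereas T790M, in the gatekeeper position of the same pocket, lets it signal in the presence of erlotinib, so that EGFR output to ERK, AKT and NF-kappaB can persist. Quinacrine is an acridine antimalarial that enters DNA, collects in acidic lysosomes and has been described as trapping the histone chaperone FACT on chromatin and lowering NF-kappaB activity. The title of the study names FACT, NF-kappaB and the cell cycle as what quinacrine acts on in this setting.

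Expression was read on a whole-transcript Affymetrix array (Human Gene 2.1 ST), whose probes lie in many exons per gene, and all levels below are RMA values on the log2 scale. Genes averaging at least 5 over the 12 arrays were tested, 5820 in all. A gene that is low with 1 compound could pass this filter through the arrays where it was high. Of the 18 genes called higher with quinacrine 7 had an erlotinib mean below 5 (IL24, CXCL16, PXDC1, CYLD, HSD17B7P2, IRF1 and RESF1). Of the 23 called lower 3 had a quinacrine mean below 5 (RXRA, GAS2L1 and PUSL1). The 3 quinacrine arrays had medians over the tested genes of 6.39 (6 h), 6.45 (12 h) and 6.56 (24 h), and the erlotinib arrays of 6.53, 6.38 and 6.49. The interquartile range over all rows was smallest on the erlotinib 12 h array (2.26) among these 6 and largest on the quinacrine 24 h array (2.88). The combination 6 h array, which enters the fit behind the standard errors, stood apart: its interquartile range (2.04), its median over the tested genes (6.18) and its median correlation with the other arrays (0.955) were the lowest of the 12, and 259 genes were called without it in place of 41. Of 22 epithelial markers 15 passed the filter. KRT8 (mean 2.81), KRT18 (4.71), CLDN4 (3.86) and RAB25 (1.3) were among those below it. Of 21 mesenchymal markers 7 passed, VIM among them at a mean of 5.86. Of 12 alveolar type 2 markers 3 passed (NKX2-1, LPCAT1 and ABCA3), while the surfactant genes SFTPA1, SFTPB, SFTPC and SFTPD lay at means of 1.0 to 1.76, near the array medians of 1.39 to 1.64 over all rows. Of the defining markers of other cells, PTPRC was at a mean of 0.89, CD3E at 1.31, DCN at 0.74, VWF at 1.48 and CHGA at 1.2. The blood cell list had 3 of 18 members above the filter, CD68 (mean 8.57) and CSF1R (6.44) among them. Of the fibroblast and endothelial list 1 of 16 was above it (ENG, 8.74), and of the neuroendocrine list 0 of 11.

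In all, 41 of 5820 genes (0.704%) differed between quinacrine and erlotinib in limma at an adjusted p below 0.05, 18 higher with quinacrine (0.309%) and 23 lower (0.395%). Counts of called list members in the paragraphs below are to be read beside these shares. All 41 had the same sign at the 3 times, and 27 differed by at least 2-fold. The higher genes were led by secreted immune signals and the adhesion molecule ICAM1, and the lower genes included BOK, INPP5A, the histone variant gene H2AX and WNT9A. In 40 of the 41 the 3 quinacrine arrays did not overlap the 3 erlotinib arrays; the exception was GDF15. Without regard to the call, the groups did not overlap in 25.7% of all tested genes. In the paragraphs below, quinacrine minus erlotinib is the mean of the 3 matched differences, and its standard error comes from a limma fit of the 9 arrays of the 3 treated groups at 6, 12 and 24 h. With no replicates, the error of that fit measures how far single arrays depart from treatment and time effects that add up.

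**Figure D1:**
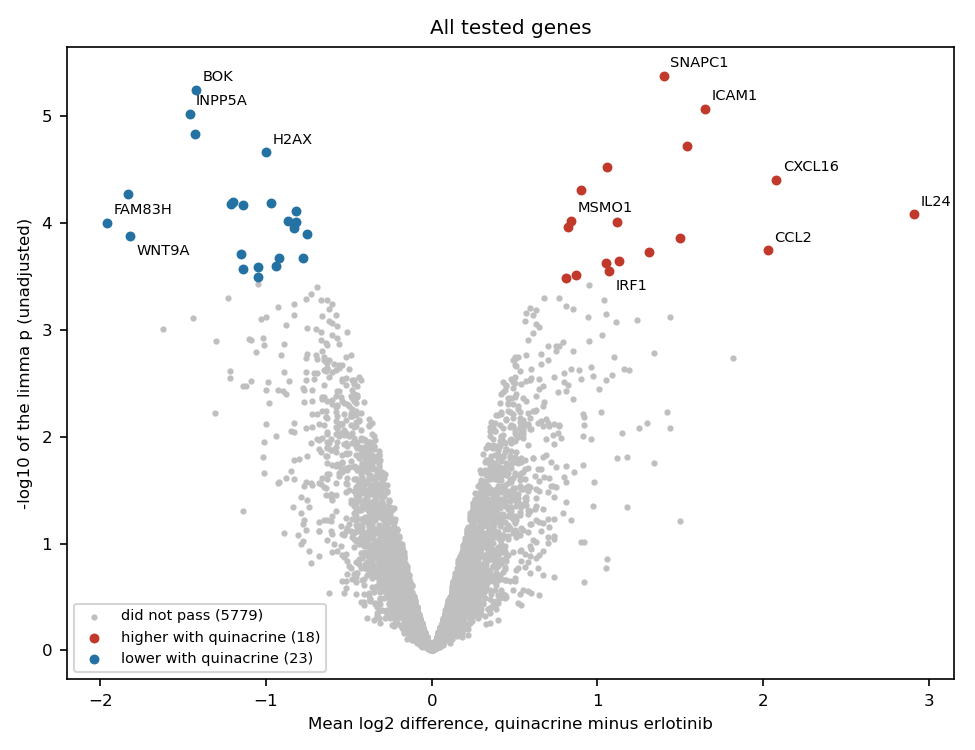
Mean log2 difference between quinacrine and erlotinib over 6, 12 and 24 h (horizontal axis) against -log10 of the unadjusted limma p (vertical axis) for the 5820 tested genes. Red points are the 18 genes higher and blue points the 23 genes lower with quinacrine; IL24 lies farthest to the right at 2.91 and FAM83H farthest to the left at -1.96.

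IL24, a secreted cytokine related to interleukin-10, had the largest difference of the called genes. With quinacrine its level was 7.26, 7.63 and 7.42 at 6, 12 and 24 h, and with erlotinib it was 5.19, 4.65 and 3.75. The quinacrine arrays were thus nearly level over time and the erlotinib arrays went down from 6 to 24 h, with no overlap. The mean difference was 2.91 on the log2 scale (SE 0.37, 7.5-fold, limma adjusted p = 0.0262). The untreated array read 5.24, close to erlotinib at 6 h.

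CCL2, a chemokine that draws monocytes, was at 8.85, 9.04 and 9.81 with quinacrine and at 7.27, 7.05 and 7.29 with erlotinib. Its difference of 2.03 (SE 0.29, adjusted p = 0.0374) corresponded to 4.08-fold. CXCL16, a chemokine made as a membrane-bound and a shed form, was at 5.32, 6.26 and 6.44 against 3.66, 3.91 and 4.21, a difference of 2.08 (SE 0.24, adjusted p = 0.0254). For both genes the untreated level (7.72 and 4.66) lay between the groups, so that all quinacrine arrays were above it and all erlotinib arrays below it.

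ICAM1, which binds integrins of leukocytes, was at 8.82, 8.33 and 8.69 with quinacrine (8.61 ± 0.25, SD over time points, n = 3) and at 7.41, 6.75 and 6.74 with erlotinib (6.97 ± 0.38, SD, n = 3). All quinacrine values lay above all erlotinib values and above the untreated 7.64. The difference was 1.65 (SE 0.15, 3.13-fold, adjusted p = 0.0138). IRF1, a transcription factor of the interferon pathway, was at 5.65, 5.62 and 6.22 against 4.95, 4.61 and 4.73, a difference of 1.07 (SE 0.16, adjusted p = 0.043), and its untreated level of 4.69 lay within the erlotinib values. IFNGR2, the signalling chain of the interferon-gamma receptor, was at 6.36, 5.94 and 6.06 against 5.46, 5.15 and 5.06 (difference 0.90, SE 0.11, adjusted p = 0.0262).

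The promoters of ICAM1 and IRF1 are shown as examples, chosen because they are the genes called higher whose promoters held a match to the STAT-type motif below; IL24, CCL2 and CXCL16 had larger differences. The sequences are from RefSeq (GRCh38.p14) and run from 250 bases to 1 base before the annotated start of each gene, 5′ to 3′ on the gene's strand: chr19:10270870-10271119 on the plus strand for ICAM1 and chr5:132490774-132491023 on the minus strand for IRF1. Capitals mark matches to the NF-kappaB-type motif GGNNNTTCC or to the STAT-type motif TTCNNNGAA, searched on both strands; the 2 motifs share letters and can overlap elsewhere.
ICAM1: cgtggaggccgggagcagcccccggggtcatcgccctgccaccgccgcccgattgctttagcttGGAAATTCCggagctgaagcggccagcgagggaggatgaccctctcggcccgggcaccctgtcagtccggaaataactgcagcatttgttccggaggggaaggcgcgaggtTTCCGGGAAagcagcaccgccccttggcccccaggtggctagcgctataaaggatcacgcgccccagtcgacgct
IRF1: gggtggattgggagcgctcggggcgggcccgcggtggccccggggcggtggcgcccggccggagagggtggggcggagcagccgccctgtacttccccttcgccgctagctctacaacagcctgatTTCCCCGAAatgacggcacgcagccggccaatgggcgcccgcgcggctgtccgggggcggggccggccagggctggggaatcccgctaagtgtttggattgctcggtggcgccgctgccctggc

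In ICAM1 the match GGAAATTCC begins at position -186 and TTCCGGGAA at -75 from the start, and in IRF1 TTCCCCGAA begins at -124. GGNNNTTCC was found in 17.1% and TTCNNNGAA in 6.78% of 27305 human promoters cut to the same 250 bases. Over the 4805 tested genes with a promoter the shares were 20.3% and 5.62%. Of the called genes 30 had a promoter in the table. Among these GGNNNTTCC matched in 2 of 13 genes higher with quinacrine (ICAM1 and IFNGR2) and in 5 of 17 lower genes (BOK, GPER1, HSPA2, NF2 and XPOT), and TTCNNNGAA in 2 of 13 (ICAM1 and IRF1) and 1 of 17 (GPER1). A match is a run of letters, not a bound site.

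NF-kappaB is a family of dimeric transcription factors held in the cytosol by inhibitors such as NFKBIA until IKK kinases release them, and its targets include its own inhibitors. Of 32 listed NF-kappaB target genes 13 were tested and 4 were higher with quinacrine (CXCL16, CCL2, ICAM1 and IRF1), none was lower and 9 did not pass; 0.309% of all tested genes were called higher. CXCL16, IRF1 and CXCL8 had an erlotinib mean below 5 and passed the filter through arrays where they were higher, which leaves ICAM1 and CCL2 called among the other 10. CXCL16 was not tested when the filter was taken over the 6 arrays compared. Several members of this list came to notice in earlier results of these data, so the list is not independent evidence of its direction. The list's median difference was 0.57, compared with 0.01 over all tested genes, and it was 0.31 at 6 h, 0.58 at 12 h and 1.19 at 24 h. These medians include CXCL16, IRF1 and CXCL8 and were not taken without them, so nothing is read from their size. CXCL8, a chemokine that draws neutrophils, was at 5.49, 5.06 and 6.11 with quinacrine and at 4.84, 4.30 and 3.77 with erlotinib, without overlap, but did not pass (difference 1.25, SE 0.35, adjusted p = 0.137). F3, the tissue factor that starts clotting, differed by 1.16 (SE 0.25, adjusted p = 0.0931) and PLAU, urokinase, by 0.57 (adjusted p = 0.272).

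Of the pathway's own subunits, inhibitors and kinases 12 of 19 were tested. CYLD, a deubiquitinase that restrains NF-kappaB, was the member called, at 6.49, 6.27 and 6.15 with quinacrine against 5.15, 4.53 and 4.73 with erlotinib (difference 1.5, SE 0.21, adjusted p = 0.0295). CYLD had an erlotinib mean of 4.8, below the filter value, and passed through arrays where it was higher. The other 11 did not pass, and 0.309% of all tested genes were called higher. TNFAIP3, an inhibitor induced by the pathway, differed by 0.38 at 6 h, 0.99 at 12 h and 2.64 at 24 h (mean 1.34, SE 0.44, adjusted p = 0.186), and NFKBIA by -0.29, 0.27 and 1.05 (mean 0.34, adjusted p = 0.555). The subunits NFKB2 (0.50, adjusted p = 0.234), NFKB1 (0.09, adjusted p = 0.889) and RELA (-0.25, adjusted p = 0.462) did not pass. The array reads RNA and says nothing about the activity of these proteins.

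**Figure D2:**
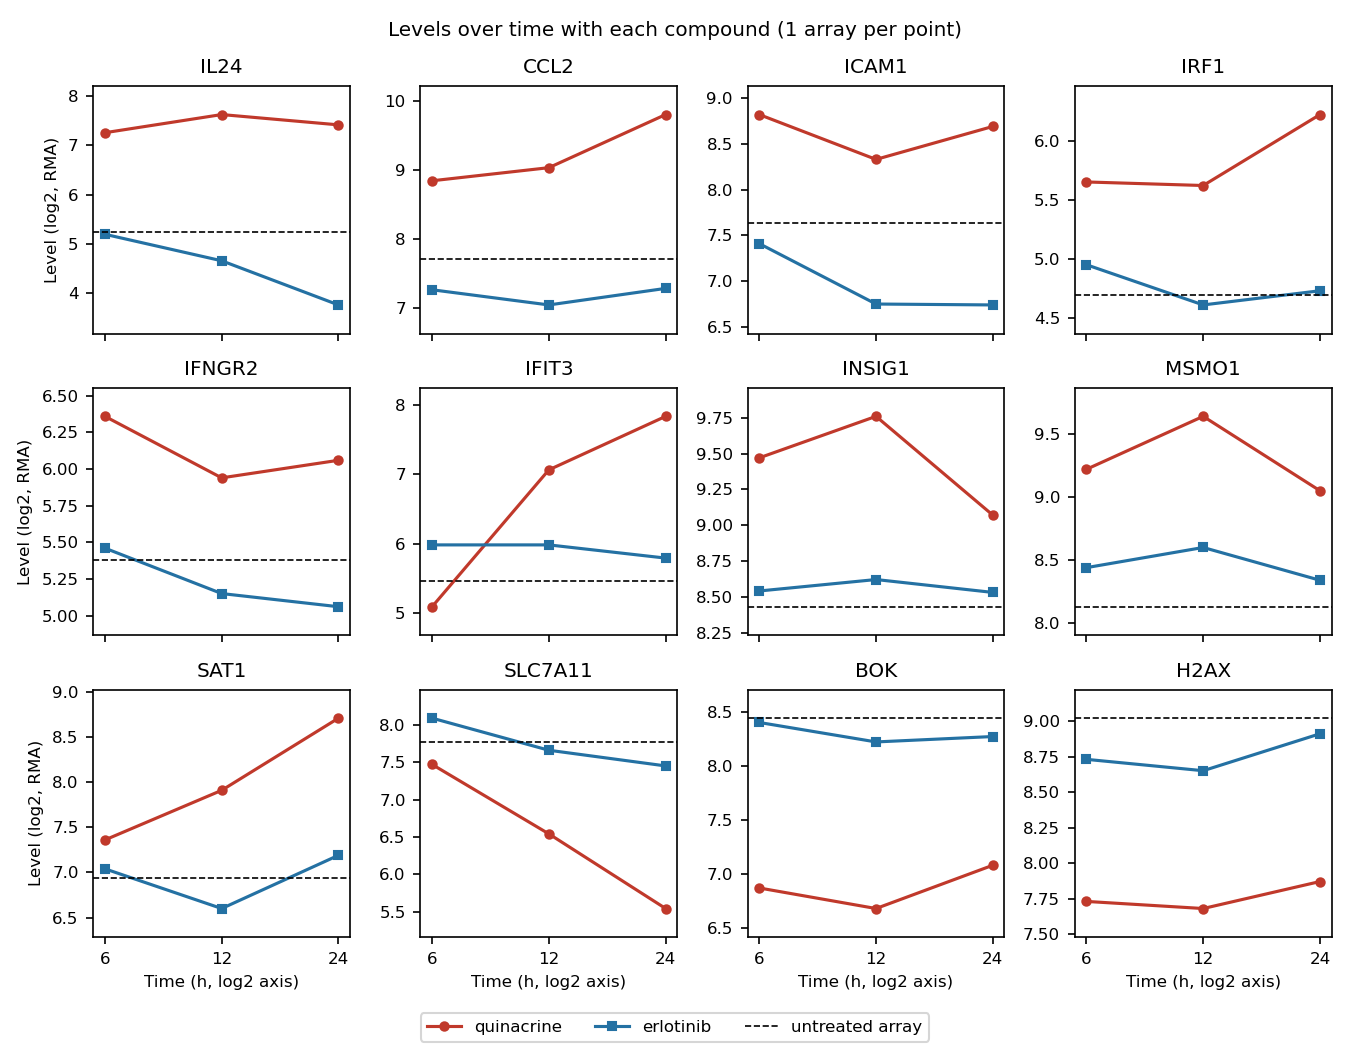
Expression level (log2, vertical axes) of 12 genes against time on a log2 axis (horizontal axes) with quinacrine (red) and erlotinib (blue), 1 array per point; the dashed line is the single untreated array. IL24, CCL2, ICAM1 and IRF1 are higher with quinacrine at all 3 times, whereas IFIT3 is lower at 6 h (5.09 against 5.98) and higher at 24 h (7.83 against 5.79).

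Among the 29 listed cytokines, chemokines and receptors 14 were tested. IL24 and IFNGR2 were higher, none was lower and 12 did not pass, while 0.309% of all tested genes were called higher. IL24 had an erlotinib mean of 4.53, below the filter value, and passed through arrays where it was higher. That leaves IFNGR2 called among the other 13. The list's median was 0.35, with values from -0.39 for LTBR, the lymphotoxin beta receptor, to 2.91 for IL24. The death receptor gene TNFRSF10B differed by 0.64 (SE 0.22, adjusted p = 0.195) and the chemokine CX3CL1 by 0.70 (adjusted p = 0.24). MICB, a stress-induced ligand of the NKG2D receptor of natural killer cells, was higher with quinacrine, at 8.23, 7.95 and 7.68 against 7.10, 6.84 and 6.73 (difference 1.06, SE 0.12, adjusted p = 0.022). MICB has 8 rows on the array; the row of the highest mean was used, 6 others differed by 1.01 to 1.08 and the 1 near background (mean 1.74) by -0.08.

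Interferon-response genes encode antiviral sensors and effectors that STAT and IRF factors switch on together. Of 39 listed genes 24 were tested and none passed. Their median difference was 0.61 and changed from -0.28 at 6 h to 0.26 at 12 h and 1.67 at 24 h, when the medians over all tested genes were -0.09, 0.06 and 0.07. At 24 h, on 1 array of each compound, 19 of the 24 were at least 2-fold higher with quinacrine (1.82% of all tested genes were); at 12 h 3 were and at 6 h none. Nothing is read from that count for 6 of the 24 (DDX60, IFI44L, IFIH1, IRF9, OAS2 and OASL), whose erlotinib mean was below 5, so that they passed the filter through arrays where they were higher. All 6 were among the 19, and of the 18 with an erlotinib mean of at least 5, 13 were. The medians above include these 6 and were not taken without them, so nothing is read from their size. OAS2, which senses double-stranded RNA, differed by -0.65, -0.03 and 3.43 at 6, 12 and 24 h, XAF1 by -0.30, 0.56 and 2.90, and IFI44L by -0.23, 0.45 and 2.49. IFIH1, a cytosolic RNA sensor, had the largest mean difference together with DDX60 (both 1.18, limma adjusted p = 0.178 and 0.276). Both are among the 6 that passed the filter through arrays where they were higher. IFITM2 had the lowest difference (-0.29, adjusted p = 0.376). The spread of these genes over time enters their standard errors, since the comparison averages the 3 times. The 24 h values rest on the quinacrine array with the largest interquartile range of the series; the part of that spread in the result was not tested.

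Antigen presentation genes load peptides on HLA molecules. Of 12 tested members of 20 none passed, and the median was 0.32. HLA-C (0.50, SE 0.11, adjusted p = 0.0915), HLA-E (0.45, SE 0.11, adjusted p = 0.0987), HLA-F (0.39) and the peptide transporter TAP1 (0.66) lay without overlap above erlotinib. PSMB10, a subunit of the immunoproteasome, was highest at 0.71 (adjusted p = 0.136), and CD74 lowest at -0.13.

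ERK, the kinase at the end of the EGFR-RAS pathway, induces its own feedback inhibitors. Of 25 listed early and feedback genes 14 were tested and none passed; the median was 0.32. SPRY4, an inhibitor of receptor signalling, was at 6.22, 5.15 and 5.77 with quinacrine and at 5.23, 4.24 and 4.56 with erlotinib, with an untreated level of 5.55 (difference 1.04, SE 0.18, adjusted p = 0.0593). At each matched time the quinacrine array was the higher. The erlotinib mean of SPRY4 was 4.68, below the filter value, so it passed through arrays where it was higher. EPHA2, an ephrin receptor, differed by 0.68 (SE 0.11, adjusted p = 0.0593), SPHK1, a sphingosine kinase, by 0.84 (adjusted p = 0.0931) and DUSP5, a phosphatase of ERK, by 0.67 (adjusted p = 0.117). FOSL1 (-0.44, adjusted p = 0.161) and MYC (-0.25, SE 0.10, adjusted p = 0.283) had negative differences. Over the list the median against the untreated array was -0.25 with erlotinib and 0.23 with quinacrine. DUSP6, another ERK phosphatase, lay below the filter with a mean of 2.88. EGFR itself was at 8.10, 8.11 and 8.45 with quinacrine and at 8.46, 8.25 and 8.24 with erlotinib (difference -0.10, SE 0.18, adjusted p = 0.837), ERBB3 differed by 0.17 (adjusted p = 0.444), and none of the 13 tested receptor kinases, ligands and adaptors passed (median -0.06, from PDGFA at -0.37 to SOS1 at 0.27).

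Sterol synthesis genes are switched on by SREBF2, which INSIG1 holds in the endoplasmic reticulum while sterols are plentiful, and INSIG1 is itself a target. Of 32 listed genes of cholesterol synthesis and transport 16 were tested; 2 were higher with quinacrine, none was lower and 14 did not pass, with a median of 0.32 (0.17, 0.58 and 0.30 at 6, 12 and 24 h). In 8 of the 16 all quinacrine arrays were above all erlotinib arrays, against 13.1% of all tested genes. INSIG1 was at 9.47, 9.76 and 9.07 with quinacrine and at 8.54, 8.62 and 8.53 with erlotinib (difference 0.87, SE 0.14, adjusted p = 0.0454). The quinacrine values peaked at 12 h while erlotinib stayed near the untreated 8.43. MSMO1, a sterol demethylase, was at 9.22, 9.64 and 9.05 against 8.44, 8.60 and 8.34 (difference 0.84, SE 0.11, adjusted p = 0.0262). HMGCS1, which makes the precursor of mevalonate, differed by 0.74 (SE 0.17, adjusted p = 0.0967), NSDHL by 0.62 (adjusted p = 0.125) and the lysosomal cholesterol carrier NPC1 by 0.40 (adjusted p = 0.175). HSD17B7P2, a pseudogene close in sequence to a sterol synthesis gene, was higher by 1.13 (SE 0.17, limma adjusted p = 0.0401), and signal from related copies cannot be told apart here. Like CXCL16, it was not tested when the filter was taken over the 6 arrays compared. The sterol-element motif TCACNCCAC, present in 0.875% of the 27305 promoters on either strand, was in none of the 13 promoters of higher genes. At so low a share no match among 13 is the likely outcome, so nothing is read from its absence. Fatty acid synthesis genes, 12 tested, had a median of -0.03 and none passed; ACLY was at 0.38 and FASN at -0.57 (SE 0.11, adjusted p = 0.0772).

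Other genes higher with quinacrine belonged to varied processes. SNAPC1, a subunit of a complex that activates transcription of small nuclear RNAs, had the smallest p of all genes. It was at 7.79, 7.59 and 7.36 against 6.41, 6.11 and 6.02 (difference 1.40, SE 0.12, adjusted p = 0.0138). PXDC1 was at 6.58, 6.58 and 6.40 against 5.27, 4.82 and 4.84 (difference 1.54, SE 0.16, adjusted p = 0.018). Both sets of quinacrine arrays lay above the untreated level (6.40 and 5.13). GDF15, a secreted stress cytokine, was at 7.09, 7.19 and 7.97 against 5.57, 5.58 and 7.17 (difference 1.31, SE 0.19, adjusted p = 0.0374). All 6 of these values exceeded the untreated 4.99, and erlotinib at 24 h lay within the quinacrine range. NOCT, a phosphatase of NADP(H) with circadian expression, differed by 1.12, G0S2, an inhibitor of the lipase ATGL, by 1.05, FBXO33, a substrate receptor of ubiquitin ligases, by 0.82, and RESF1, a factor of retroelement silencing, by 0.81 (adjusted p from 0.0262 for NOCT to 0.0459 for RESF1).

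Of the genes lower with quinacrine, FAM83H, which organises keratin filaments, had the largest difference, with levels of 4.74, 5.28 and 5.45 against 7.30, 7.12 and 6.94 with erlotinib (difference -1.96, SE 0.26, 3.9-fold, adjusted p = 0.0262). WNT9A, a secreted WNT ligand, was at 5.53, 6.69 and 6.86 against 8.14, 8.31 and 8.09 (difference -1.82, SE 0.25, adjusted p = 0.0295). In both the 6 h quinacrine array was the lowest and the erlotinib arrays stayed near the untreated level (6.86 and 8.11). SNAR-E, a short noncoding transcript whose gene has almost identical copies, was at 7.79, 8.75 and 8.73 against 9.79, 10.12 and 10.86 (difference -1.83, adjusted p = 0.0262), and its signal may come from several copies.

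INPP5A, which removes a phosphate from the calcium messenger inositol trisphosphate, was at 5.87, 5.41 and 5.61 against 7.02, 7.18 and 7.06 (difference -1.46, SE 0.13, adjusted p = 0.0138). The 2 groups were far apart at every time and the untreated array (7.21) stood with erlotinib. RPUSD1 and PUSL1, members of the pseudouridine synthase family, differed by -1.43 (SE 0.14, adjusted p = 0.0172) and -0.94 (adjusted p = 0.0415). BAIAP2, an adaptor of the actin cytoskeleton, differed by -1.21 and GAS2L1, which links actin and microtubules, by -1.14. The retinoid X receptor RXRA differed by -1.15 and HSPA2, an HSP70 family member, by -1.14. PUSL1, GAS2L1 and RXRA had quinacrine means of 4.92, 4.73 and 4.89, below the filter value, and passed through arrays where they were higher. XPOT, the exporter of tRNAs from the nucleus, was at 7.28, 6.62 and 6.79 against 8.02, 8.01 and 7.82 (difference -1.05, SE 0.16, adjusted p = 0.0415). HPDL (-1.05), the estrogen-binding receptor gene GPER1 (-0.97), C16orf74 (-0.87), APOOL of the mitochondrial inner membrane (-0.83), the mechanically gated channel PIEZO1 (-0.82), the tumour suppressor NF2 (-0.78) and the ubiquitin ligase ZNRF1 (-0.75) were lower as well, with adjusted p from 0.0262 to 0.0459.

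CYP1B1, a cytochrome P450 induced by the aryl hydrocarbon receptor, was at 6.21, 5.90 and 5.76 with quinacrine and at 7.37, 6.85 and 7.26 with erlotinib (difference -1.20, SE 0.15, adjusted p = 0.0262). The untreated level, 6.62, lay between the groups, below all erlotinib and above all quinacrine arrays. CYP1A1, another target of that receptor, was at 5.78, 5.29 and 4.35 against 4.69, 4.25 and 5.45, changing sign at 24 h (difference 0.34, SE 0.40, adjusted p = 0.709). Of 6 tested genes of the aryl hydrocarbon receptor list CYP1B1 was lower, and 5 did not pass (median 0.04).

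BOK, a BCL2-family protein that can permeabilise mitochondria, was at 6.87, 6.68 and 7.08 with quinacrine and at 8.40, 8.22 and 8.27 with erlotinib (difference -1.42, SE 0.12, 2.68-fold, adjusted p = 0.0138). It was the called gene among 12 tested apoptosis regulators, whose median was 0.04. PMAIP1, a BH3-only protein, differed by 0.54 (0.22, 0.39 and 1.01 at 6, 12 and 24 h, adjusted p = 0.186), MCL1 by 0.35 and BAX by -0.32. Of 11 tested p53 targets GDF15 was higher and 10 did not pass (median 0.16, lowest PHLDA3 at -0.39). CDKN1A lay below the filter, at 3.96, 3.77 and 4.05 with quinacrine and at 4.03, 3.95 and 3.82 with erlotinib.

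FACT is a dimer of SUPT16H and SSRP1 that moves H2A-H2B dimers past polymerases. SUPT16H was at 8.35, 8.48 and 8.62 with quinacrine and at 8.61, 8.54 and 8.52 with erlotinib, overlapping (difference -0.07, SE 0.11, adjusted p = 0.793), and SSRP1 at 8.14, 8.04 and 8.03 against 8.34, 7.99 and 8.33 (-0.15, SE 0.15, adjusted p = 0.665). None of the 8 tested histone chaperone genes passed (median -0.14, from SET at 0.23 to CHAF1A, a subunit of the replication-coupled chaperone, at -1.0, SE 0.24, adjusted p = 0.102). H2AX, the histone variant phosphorylated at DNA breaks, was at 7.73, 7.68 and 7.87 with quinacrine and at 8.73, 8.65 and 8.91 with erlotinib (difference -1.0, SE 0.10, 2.00-fold, adjusted p = 0.018). Its matched differences were nearly the same at the 3 times (-1.0, -0.97 and -1.04), and the groups did not overlap. Of 12 tested histone genes H2AX was lower and 11 did not pass; the list's median was -0.19, and the linker histone gene H1-4 differed by -0.89 (SE 0.18, adjusted p = 0.079).

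Among cell cycle genes, SKP2, the ubiquitin ligase subunit that marks the inhibitor CDKN1B for breakdown, was lower with quinacrine, at 7.77, 7.61 and 7.44 against 8.47, 8.42 and 8.39 (difference -0.82, SE 0.11, adjusted p = 0.0262), and so was DTYMK, which makes thymidine diphosphate for DNA (difference -0.92, SE 0.14, adjusted p = 0.0389). Both were outside the lists. Of 38 tested genes of G1/S and DNA replication none passed (median -0.07), from CDC6, a licensing factor, at 0.51 (SE 0.11, adjusted p = 0.0931) to CDT1, its partner in licensing, at -0.71 (SE 0.16, adjusted p = 0.0944). None of 38 tested genes of G2/M and mitosis passed (median -0.06, from CKS1B at 0.52 to NUF2 at -0.45). Of 13 cyclins and CDK inhibitors none passed (median 0.05); CDKN1B differed by 0.56 (adjusted p = 0.253), CCND1 by 0.00 (SE 0.18) and CDK1 by 0.04 (SE 0.11, adjusted p = 0.899). Arrays of bulk RNA cannot tell a smaller share of cells in a phase from less RNA per cell.

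Stress and metabolic lists held further large differences that did not pass. SLC7A11, the cystine importer, was at 7.47, 6.54 and 5.54 with quinacrine and at 8.09, 7.66 and 7.45 with erlotinib (difference -1.22, SE 0.27, adjusted p = 0.0934), a gap that was -0.62 at 6 h and -1.91 at 24 h. TXNIP, which binds and inhibits thioredoxin, was at 7.74, 8.05 and 8.27 against 7.26, 6.97 and 6.98 (difference 0.95, SE 0.19, adjusted p = 0.0773). SAT1, which acetylates polyamines for export, was at 7.36, 7.91 and 8.71 against 7.04, 6.60 and 7.19 (difference 1.05, SE 0.24, adjusted p = 0.0967). In SAT1 and TXNIP all quinacrine arrays were above all erlotinib arrays, and in both the gap was widest at 24 h. The medians were -0.06 for 17 ATF4-response genes, -0.16 for 16 tRNA synthetases, -0.01 for 18 ER chaperone genes, -0.06 for 12 heat shock genes, -0.07 for 18 NRF2 and redox genes, -0.03 for 10 polyamine genes and 0.28 for 8 FOXO targets, and no member of these lists passed. EPRS1 (-0.52, adjusted p = 0.0967), the ER stress gene HERPUD1 (-0.48, adjusted p = 0.0967) and DNAJB1 (-0.58, adjusted p = 0.126) were lowest in theirs.

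Quinacrine collects in lysosomes, and 23 of 32 listed lysosome genes were tested. None passed and their median was 0.12, from SGSH at -0.62 (SE 0.11, adjusted p = 0.0631) to the sphingomyelinase gene SMPD1 at 0.48. Of 17 tested autophagy genes none passed (median 0.17); the receptor gene SQSTM1 differed by 0.17 (SE 0.13, adjusted p = 0.553) and RB1CC1 by 0.57 (adjusted p = 0.253). No member passed either among 7 ABC transporters (median -0.07, ABCC3 at 0.76), 13 YAP targets (0.12), 18 hypoxia and glycolysis genes (0.02), 17 genes of the respiratory chain (0.05), 23 of ribosome biogenesis (-0.04, BOP1 at -1.12), 15 epithelial markers (0.13, MUC1 at 0.67), 7 mesenchymal markers (0.16, VIM at 0.57) and 15 KRAB zinc finger genes (0.10). The few tested markers of other cells did not pass (CD68 -0.55, CSF1R 0.23, ENG -0.09, NKX2-1 0.07).

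**Figure D3:**
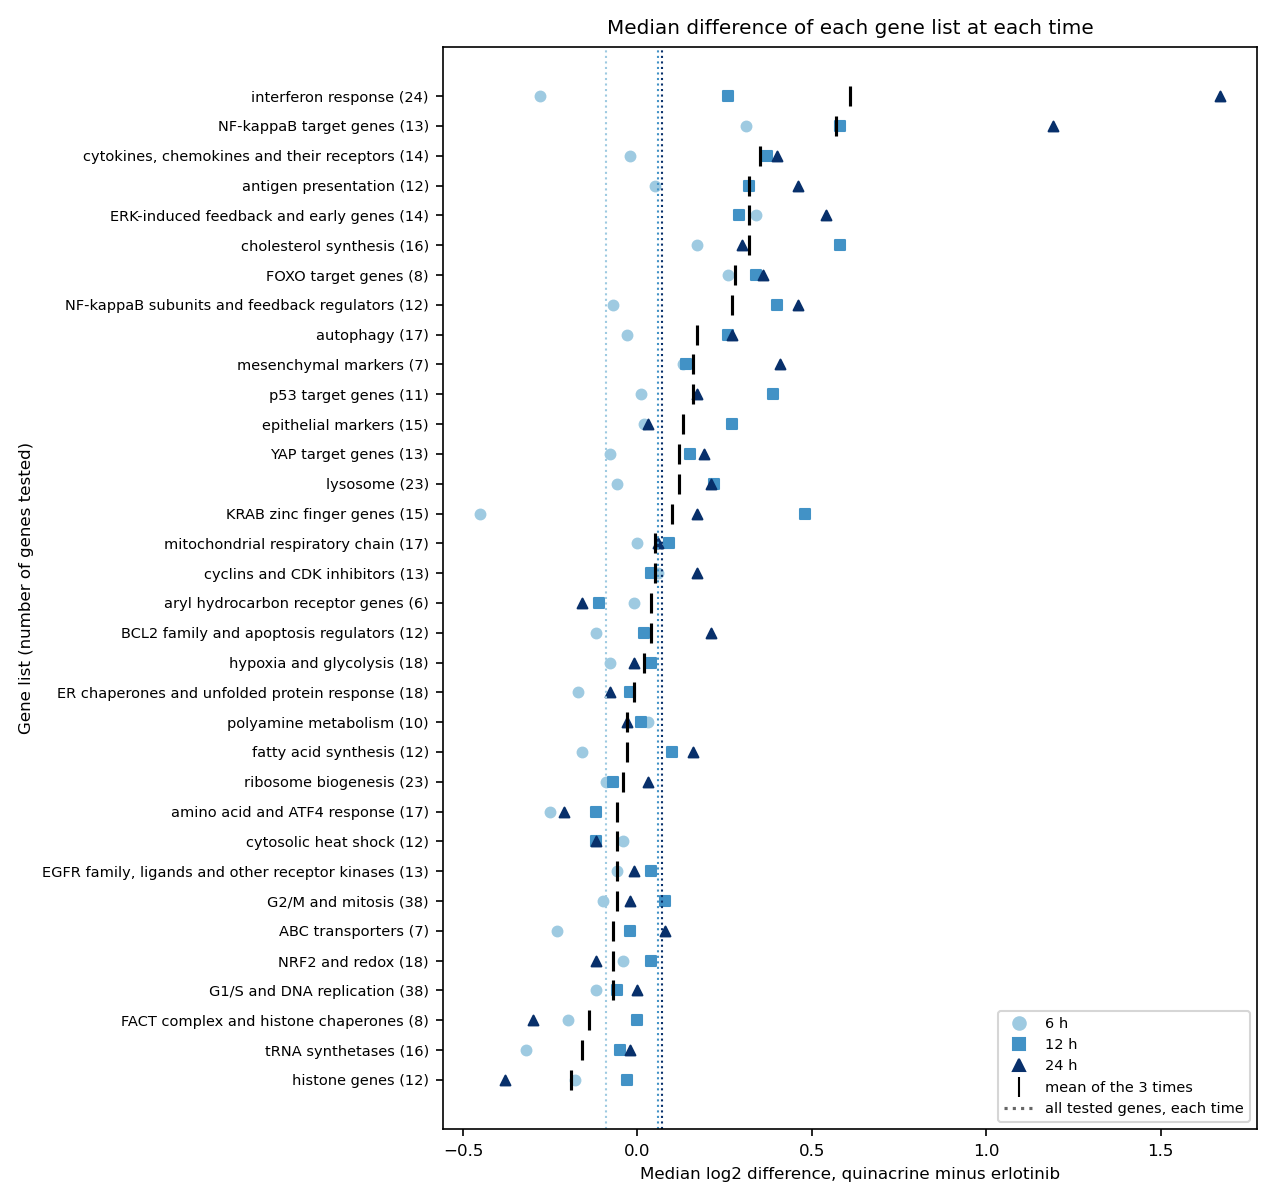
Median log2 difference between quinacrine and erlotinib (horizontal axis) for each gene list with at least 5 tested genes (vertical axis, number tested in brackets), at 6, 12 and 24 h (symbols) and for the mean of the times (black ticks); dotted lines are the medians of all tested genes at each time. Interferon-response genes spread widest, from -0.28 at 6 h to 1.67 at 24 h, and by the mean of the times the histone list lies lowest at -0.19. List medians include members that passed the filter only through arrays where they were higher, 6 of 24 in the interferon-response list.

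The called genes were also placed against the single untreated array. All 18 higher genes were above the untreated level in all 3 quinacrine arrays and all 23 lower genes below it in all 3. The mean erlotinib level was farther from the untreated one than the mean quinacrine level in 1 of the 41. All 3 erlotinib arrays lay on the other side of the untreated level in 8 of the 18 higher genes, such as ICAM1 and CCL2, and in 6 of the 23 lower genes, such as CYP1B1. The median departure of the higher genes from the untreated array was 1.07 with quinacrine and -0.29 with erlotinib, and that of the lower genes -1.03 and 0.09. The untreated array serves both compounds, has no replicate and no stated time, so these are descriptions without a test. The genes were called from the same quinacrine and erlotinib arrays, so their place on the quinacrine side is partly built in. Shares over all tested genes were not taken for these counts, and nothing is read from them.

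**Figure D4:**
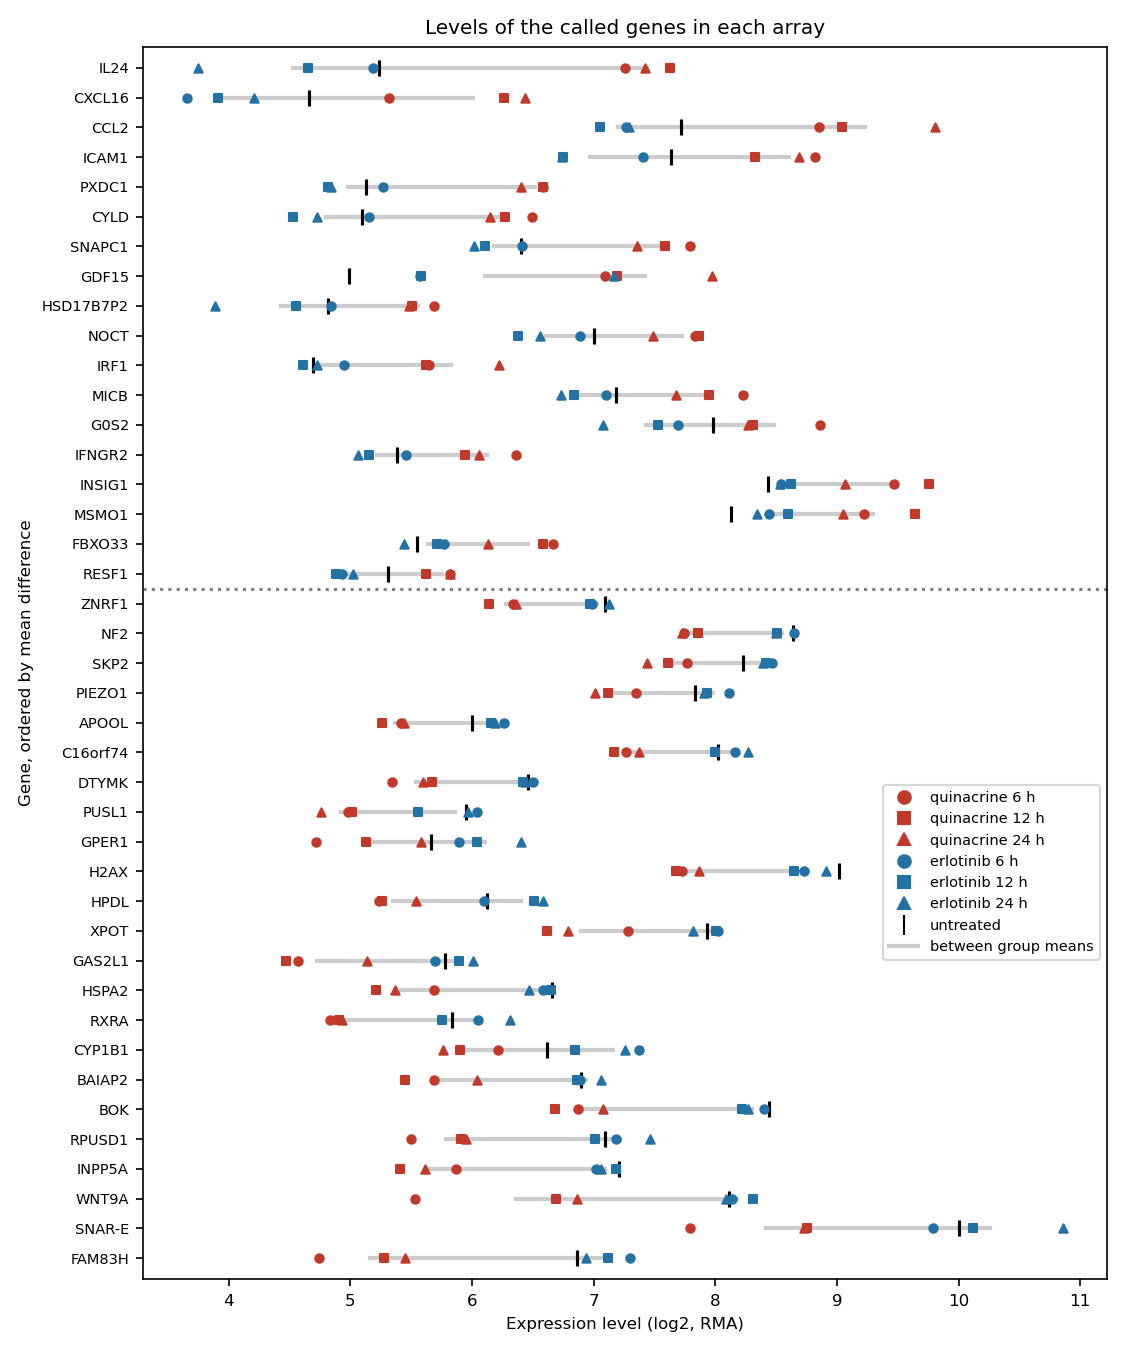
Expression level (log2, horizontal axis) of the 41 called genes (vertical axis, ordered by mean difference) on each quinacrine array (red) and erlotinib array (blue) at 6, 12 and 24 h, with the untreated array as a black tick and grey bars between the group means. GDF15 is the gene in which the colours overlap, and the untreated tick of the genes below the dotted line lies nearer to the erlotinib points.

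The slope of the difference per doubling of time passed for no gene in limma (smallest adjusted p = 0.642; 365 genes had an unadjusted p below 0.05), a test with 2 residual degrees of freedom. The smallest p belonged to IFIT3, an interferon-induced gene, with a slope of 1.46 per doubling, SNORD69, a small nucleolar RNA, with 1.30, and CTSS, the lysosomal protease cathepsin S, with 0.95; in the other direction CYP1A1 had -1.10, SNORA22 -0.61 and BOP1 -0.60. At 6 h 26 genes (0.447%) were at least 2-fold higher and 157 (2.7%) at least 2-fold lower with quinacrine. At 12 h these counts were 124 (2.13%) and 55 (0.945%), and at 24 h 106 (1.82%) and 51 (0.876%). After each time's median was set to 0 they were 37 and 121, 98 and 70, and 92 and 63. Single pairs of arrays stand behind these counts, and the array medians given above moved with them.

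The combination arrays were compared with quinacrine alone in the same fit. No gene passed (smallest limma adjusted p = 1; 43 genes had an unadjusted p below 0.05), and the median half-width of the 95% interval of a difference was 0.34 before adjustment. A difference had to be well above that size to pass: the smallest p belonged to CYP1B1, whose -0.73 still had an adjusted p of 1. For ICAM1 the mean level was 8.61 with quinacrine, 8.45 with both compounds and 6.97 with erlotinib, and for BOK 6.88, 6.89 and 8.30. CYP1B1 was at 5.96 with quinacrine, 6.69 with both and 7.16 with erlotinib. That difference between quinacrine and both compounds was the largest among the called genes.

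By correlation over the 12 arrays, the genes most like IL24 were PXDC1 (Pearson r = 0.977), the galanin receptor gene GALR2 (0.976) and KLHDC10 (0.97), and those most like INPP5A were HSPA2 (0.975), H2AX (0.971) and SSU72 (0.969). These values are descriptions: the arrays share treatments and processing. GALR2 differed by 1.82 (SE 0.38, adjusted p = 0.0864), KLHDC10 by 0.60 and SSU72, a phosphatase of RNA polymerase II, by -0.63 (adjusted p = 0.0593).

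The number of calls depended on single arrays. In limma, 134 genes were called without the erlotinib 6 h array, none without erlotinib 12 h or 24 h, none without quinacrine 6, 12 or 24 h, 259 without combination 6 h, 10 without combination 12 h and none without combination 24 h. Where none was called, 555 to 847 genes had an unadjusted p below 0.05. Each of the 41 genes kept the sign of its difference in all 9 of these fits. That was largely set beforehand, since all 41 had the same sign at the 3 times. Leaving out a combination array does not change the difference at all, so nothing is read from the kept signs. No gene was called in more than 3 of the 9 fits. BAIAP2, BOK, CYLD, H2AX, ICAM1, INPP5A, MICB, PXDC1, RPUSD1 and SNAPC1 were called in 3. The 6 quinacrine and erlotinib arrays alone, matched by time, gave 58 calls, 35 of the 41 among them, and the 11 treated arrays gave 66, which also held 35 of the 41 but not the same 35.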

How the data were processed

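The authors ran RMA in Affymetrix Expression Console 1.30, per the series design text (background correction, quantile normalization, log2), and the values used here are the deposited log2 values. That text names quantile normalization, yet the deposited values still differed between arrays in interquartile range (2.04 to 2.88). The number of arrays limits the precision. Of 53617 rows 23871 had 1 gene symbol, 1842 several and 27904 none in the platform annotation; 22569 were matched by Entrez number to RefSeq. The row of the highest mean stood for each of 22395 genes. Treatment and time were fitted to 9 arrays in limma 3.58.1 (R 4.3.3) with Benjamini-Hochberg adjustment and 4 residual degrees of freedom. Time, from the labels, pairs the arrays as the block. The script was tested on simulated data.

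The members, gene lists and tests were chosen with earlier results of these data known. Genes were named by rule: the 12 largest called differences in each direction, called list members, the extremes of each list, the 3 smallest p of the time slope in each direction, the 3 genes most like IL24 and INPP5A, and a set of genes of the study's pathways. ABCA3, PLAU, TNFAIP3, NFKB2, TNFRSF10B, CX3CL1, OAS2, XAF1, IFI44L, IRF9, OASL, DDX60, HLA-C, HLA-E, HLA-F, TAP1, EPHA2, SPHK1, DUSP5, NSDHL, NPC1, MCL1, BAX and H1-4 fall outside the rule, as do some called genes of smaller difference, and were chosen after their values were seen. Alternatives changed the arrays, the time term, the filter, the row per gene, the normalization and the variance model.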

Additional observations from a re-analysis of the deposited data

How the results depend on the processing

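The 41 called genes kept the sign of their difference under every alternative in which they were tested, but the number of calls did not hold. In limma it was 66 with all 11 treated arrays, 259 without the combination 6 h array, 146 at a mean of at least 6, 317 after cyclic loess, 274 after median centring, 174 with a trended and robust variance and 466 with array weights, whose estimation stopped before it converged. No gene was called without a filter (1994 at an unadjusted p below 0.05 of 22395 genes) or when differences were tested against 1.5-fold (77 unadjusted). With no replicate block, that is without the time term, 35 genes were called, 11 higher and 24 lower, 26 of the 41 among them. Leaving out 1 array gave from 0 to 259 calls. The share of calls that were higher with quinacrine was 43.9%, and became 71.6% without erlotinib 6 h, 31.4% with no replicate block and 54.3% with array weights. The slope over time had 177 calls with array weights, and none elsewhere; quinacrine against the combination had none in any setting run (9 to 542 at an unadjusted p below 0.05).

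Sign changes occurred among genes that did not pass. CDK1 was at -0.01 and NKX2-1 at -0.09 with all 11 treated arrays, and SNORD69 at 0.01 with array weights. When 1 array was left out, the difference ranged from -0.03 to 0.07 for CDK1, -0.14 to 0.01 for SUPT16H, -0.27 to 0.10 for EGFR, -0.22 to 0.34 for NFKB1, -0.16 to 0.29 for NKX2-1, -0.2 to 0.04 for ABCA3, -0.15 to 0.01 for ENG, -0.18 to 1.6 for OAS2, -0.66 to 0.48 for SNORD69 and -0.14 to 0.38 for SNORA22. OAS2 was negative without erlotinib 24 h. The cause was not tested.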
